A study of Rattus norvegicus with 10 samples.

Results

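Immediate early genes are genes whose transcription starts within minutes of a growth factor, cytokine or stress signal without new protein synthesis, because the factors that switch them on, such as SRF with its ternary complex partners and CREB, are already in the cell and are activated by phosphorylation. Their mRNAs are short-lived, and their products are either transcription factors that drive the later response (AP-1, EGR, NR4A, KLF) or feedback inhibitors that end the signal (DUSP phosphatases, ZFP36 proteins, RGS proteins). In macrophages they belong to the first phase of the response to inflammatory stimuli. The genes described here are 44 immediate early and stress response genes given as a list, of which 43 of the 14217 genes named on the array have at least 1 probe set whose only gene symbol is that gene. Btg2 has none. The 43 genes have 69 probe sets, and every one of them is accounted for.

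The study asked what uptake of myelin does to macrophages in an inflammatory setting. Resident peritoneal macrophages of rats (strain Hsdcpb:WU, for which the labels give a body weight and no age) were grown for 3 days without myelin (control macrophages, n = 5) or with brain myelin at 100 µg/ml (mye-macrophages, n = 5). The myelin was then washed away, and both groups received IFNγ and IL-1β at 100 ng/ml for 9 hours. RNA was therefore taken at 1 time, late for genes of this kind, every sample had received the cytokines, and no sample without cytokines is part of the comparison. Each sample has 1 Affymetrix rat genome array, and no source says whether each sample is a separate animal. Samples of the same replicate number are called a pair, and the numbers 1 to 5 are those of the labels. In fits with the replicate number as a fixed block, p-values measure the spread of the differences within pairs. Without the block they measure the spread between samples of a group. Either spread may be technical. As in any bulk sample, fewer cells of a type and less RNA per cell cannot be told apart.

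Of the 69 probe sets, 60 (of 40 genes) belonged to the more variable 50% of the array over which p-values were adjusted. The other 9 lay outside this variance filter, had no adjusted p and so could not pass. They are the probe sets of Fosb, Btg1 and Per1, Jund 1375768_at and 1393138_at, and Egr4 1387442_at. The rest are Nr4a3 1369217_at, and Klf2 1375248_at and 1394068_x_at. In limma with the replicate number as a block, 13 probe sets of 10 genes were lower in mye-macrophages at an adjusted p under 0.05, and 0 were higher. The 13 belong to Egr1, Nr4a3, Fosl1, Dusp1, Dusp5, Dusp6, Klf2, Klf6, Gadd45b and Ier5. These were 21.7% of the 60, while 1.9% of all probe sets in the filter were lower and 0.792% were higher by the same limma rule. Of all named genes in the filter, 2.56% had a lower and 1.07% a higher probe set. The genes were chosen with earlier results of these data known, and these shares do not correct for that. Here "fell" and "rose" are used only past this threshold, and the size of each of the 13 falls was between 0.34 and 1.03 on the log2 scale. All 13 were lower in mye-macrophages in 5 of 5 pairs. Across all 69 probe sets, 24 were lower in 5 of 5 pairs and 0 were higher in 5 of 5 pairs, against 6.59% and 6.16% of all probe sets. The 69 were more variable and brighter than that background, with 60 in the filter and 51 above the median level of all probe sets. The fold change was below 0 for 47 of the 69, and for 48.4% of all probe sets. The median log2 fold change of the 69 was -0.12, and that of all probe sets was 0.004.

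The calls rest on the replicate number as a fixed block. With the number as a random block instead, which also keeps the pairs, 0 of the 60 passed in limma, and the 13 had adjusted p between 0.0631 and 0.533. Without the block, 0 of the 60 probe sets passed in limma, and the 13 that fell had adjusted p between 0.469 and 0.924. At an unadjusted p under 0.05, that fit counted 11 lower and 1 higher, against 3.94% and 2.71% of all probe sets in the filter. The methods' t-test after Benjamini-Hochberg adjustment also gave 0. With both samples of number 1, 2, 4 or 5 left out, between 1 and 3 passed in the blocked fit. The groups did not overlap for 2 of the 69 probe sets, those of Egr1 and Nr4a3, both lower. Of all probe sets, 0.283% were lower and 0.451% higher without overlap. A sign-flip test over the 5 pairs cannot go below 0.0625, the value that each of the 13 had. RNA degradation was read from the beta-actin controls as the 3 prime signal minus the 5 prime signal. This gap was 3.02 ± 0.30 in control macrophages and 3.30 ± 0.32 in mye-macrophages (mean log2 difference ± SD over 5 samples, p = 0.19, exact permutation test, two-sided). Within pairs 1 to 5 it differed by 0.82, 0.45, -0.21, 0.00 and 0.29. The median difference of the 13 in the same pairs was -0.60, -0.37, -0.47, -0.53 and -0.50, and pair 1 held the largest fall for 6 of the 13. With this gap as a covariate 1 of the 13 (Klf2) passed in limma and 16 of all probe sets did, while the log2 fold changes of the 13 lay between -1.03 and -0.27 (adjusted p between 0.0413 and 0.31).

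**Figure D1:**
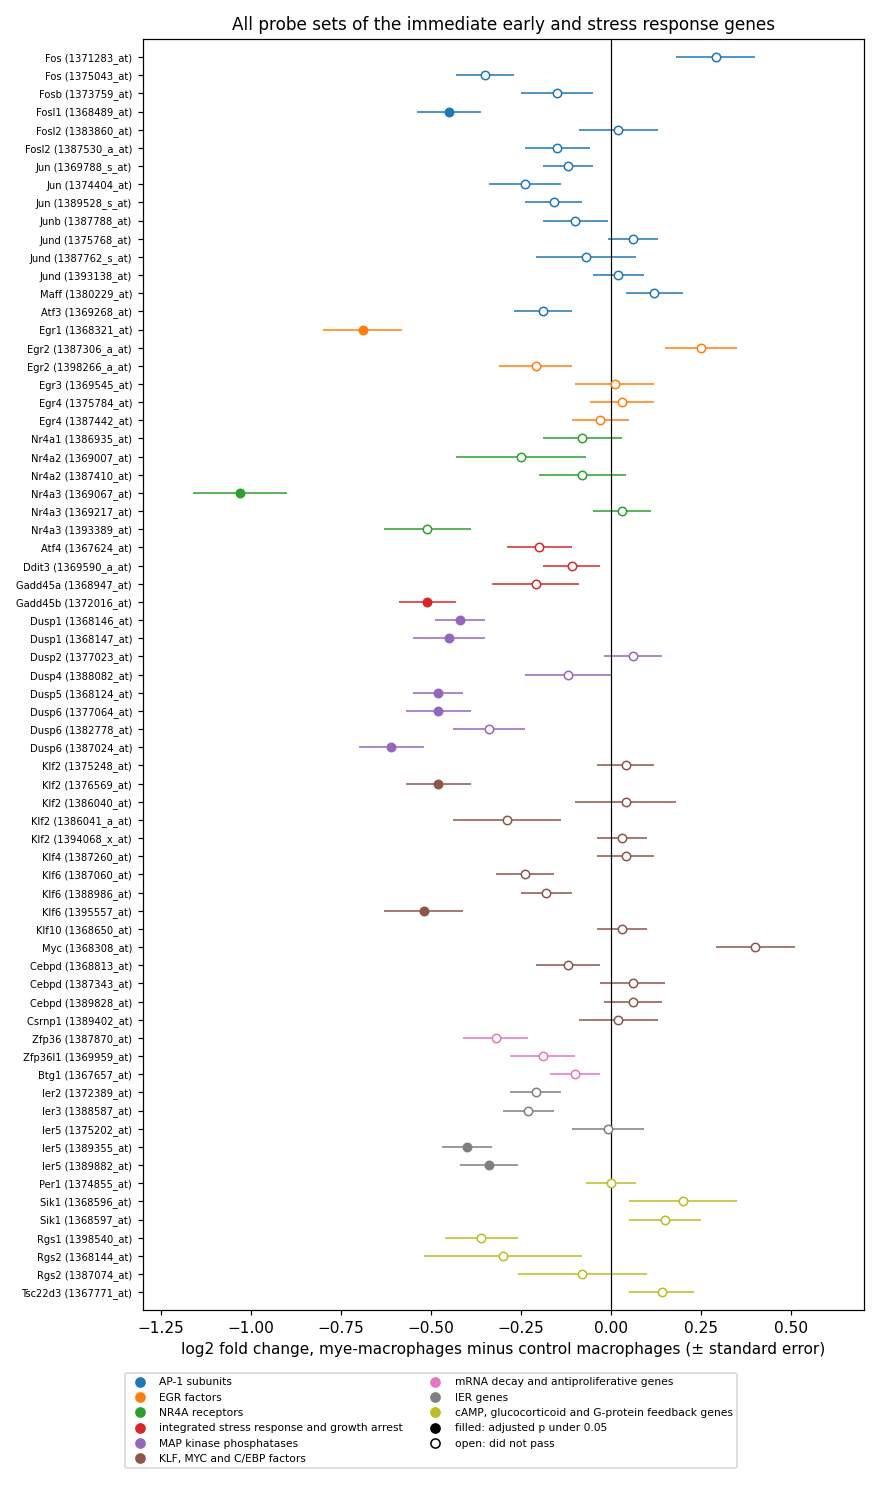
Log2 fold change of each of the 69 probe sets (x axis, mye-macrophages minus control macrophages, bars are standard errors of the blocked limma fit), coloured by gene family. Filled points, all left of 0, are the 13 probe sets at an adjusted p under 0.05.

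The EGR factors are zinc finger transcription factors induced by SRF. Egr1, the member found in nearly every cell type that responds to growth factors, fell. Its probe set (1368321_at) read 5.91, 5.87, 6.30, 6.49 and 6.41 in control macrophages 1 to 5 and 5.33, 4.67, 5.83, 5.87 and 5.84 in mye-macrophages 1 to 5 (log2 signal). The groups did not overlap, since the highest mye-macrophage sample lay just below the lowest control sample, and mye-macrophage replicate 2 was lowest of all. The fold change was -0.69 ± 0.11 (log2, standard error), or 1.61-fold lower (limma, adjusted p = 0.0161, and 0.581 without the block). Egr2, a paralog that binds the same DNA site, did not pass. Its brighter probe set (1387306_a_at) read 8.96, 8.07, 8.95, 9.36 and 8.33 in control macrophages and 9.20, 8.74, 9.07, 9.31 and 8.62 in mye-macrophages, overlapping throughout, with a log2 fold change of 0.25 ± 0.10 (limma, adjusted p = 0.196). Its dimmer probe set (1398266_a_at) had a value of -0.21. The probe sets of Egr3 and Egr4 had values between -0.03 and 0.03 and signals of 2.59 or less in every sample. In the family, 1 of 6 probe sets fell.

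The stretches before the transcript starts of Egr1 and Egr2 are shown because the paralogs share a regulatory motif while 1 of them fell and the other did not pass. The sequences are those of RefSeq on build GRCr8, 250 bases each, and capitals mark CArG boxes, the site bound by SRF. Egr1 (chr18:26736828-26737077, plus strand) has 2 boxes, and Egr2 (chr20:21054442-21054691, minus strand) has 1, with the box nearest the start at the same distance of 83 to 74 bases before it in both.
Egr1: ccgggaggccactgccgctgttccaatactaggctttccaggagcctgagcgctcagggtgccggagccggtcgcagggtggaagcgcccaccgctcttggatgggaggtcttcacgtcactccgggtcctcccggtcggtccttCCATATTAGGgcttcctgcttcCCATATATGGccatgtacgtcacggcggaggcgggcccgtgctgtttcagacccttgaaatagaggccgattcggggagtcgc
Egr2: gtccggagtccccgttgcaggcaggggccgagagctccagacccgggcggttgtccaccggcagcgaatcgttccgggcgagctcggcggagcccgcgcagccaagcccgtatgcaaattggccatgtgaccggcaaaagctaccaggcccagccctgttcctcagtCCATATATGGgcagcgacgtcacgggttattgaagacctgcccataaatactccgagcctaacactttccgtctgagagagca

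The NR4A receptors are nuclear receptors that act without a known natural ligand and are induced by cAMP and calcium signals. Nr4a3 (NOR-1) had the largest fall of the 69. Probe set 1369067_at read 2.71, 2.95, 2.79, 3.57 and 3.92 in control macrophages and 1.76, 2.33, 2.04, 2.39 and 2.28 in mye-macrophages. The groups did not overlap, and the control samples of replicates 4 and 5 were highest. The fold change was -1.03 ± 0.13, or 2.04-fold lower (limma, adjusted p = 0.011, and 0.469 without the block). These signals lay near the medians of the arrays, which were 2.30 to 2.34, so the call is that of a dim probe set. The gene has 3 probe sets and they did not all move. The brightest, 1393389_at, read 3.00, 3.26, 3.45, 4.03 and 4.02 in control macrophages and 2.85, 3.16, 2.76, 3.22 and 3.22 in mye-macrophages, lower in every pair but overlapping between groups, with a value of -0.51 ± 0.12 (limma, adjusted p = 0.056). The other, 1369217_at, lay between 2.34 and 2.67 in all 10 samples, had a value of 0.03 and was outside the variance filter. Nr4a1 (Nur77) and Nr4a2 (Nurr1) had 3 probe sets with values from -0.25 to -0.08, and 1 of 6 probe sets in the family fell.

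AP-1 is a dimer of a FOS and a JUN protein, or of the related MAF and ATF proteins. Fosl1 (FRA-1), a FOS protein that lacks the transactivation domain of FOS, was the 1 member of 9 that fell. It read 5.29, 5.31, 5.61, 5.66 and 5.92 in control macrophages and 4.54, 4.68, 5.31, 5.43 and 5.58 in mye-macrophages. Mye-macrophage replicates 1 and 2 lay below all controls and the other 3 lay among them. The fold change was -0.45 ± 0.09, or 1.37-fold lower (limma, adjusted p = 0.0372, and 0.752 without the block).

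Fos itself, the founding immediate early gene, did not pass, and its probe sets pointed opposite ways. Probe set 1375043_at read 4.55, 5.16, 4.92, 4.57 and 5.26 in control macrophages and 4.07, 4.83, 4.83, 4.26 and 4.73 in mye-macrophages, lower in every pair, with a value of -0.35 (limma, adjusted p = 0.0521). The dimmer 1371283_at read 2.73, 2.63, 2.89, 2.68 and 2.36 against 3.07, 3.13, 2.67, 2.98 and 2.88, higher in 4 of 5 pairs, with a value of 0.29 (limma, adjusted p = 0.174). No direction can be given for Fos. Atf3, a stress-induced repressor and the brightest member of this family, read 9.50, 9.74, 9.17, 8.55 and 9.17 in control macrophages and 9.09, 9.65, 8.85, 8.44 and 9.17 in mye-macrophages, a value of -0.19 ± 0.08 (limma, adjusted p = 0.229). The 3 probe sets of Jun had values of -0.12, -0.24 and -0.16, and those of Fosb, Fosl2, Junb, Jund and Maff lay between -0.15 and 0.12.

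**Figure D2:**
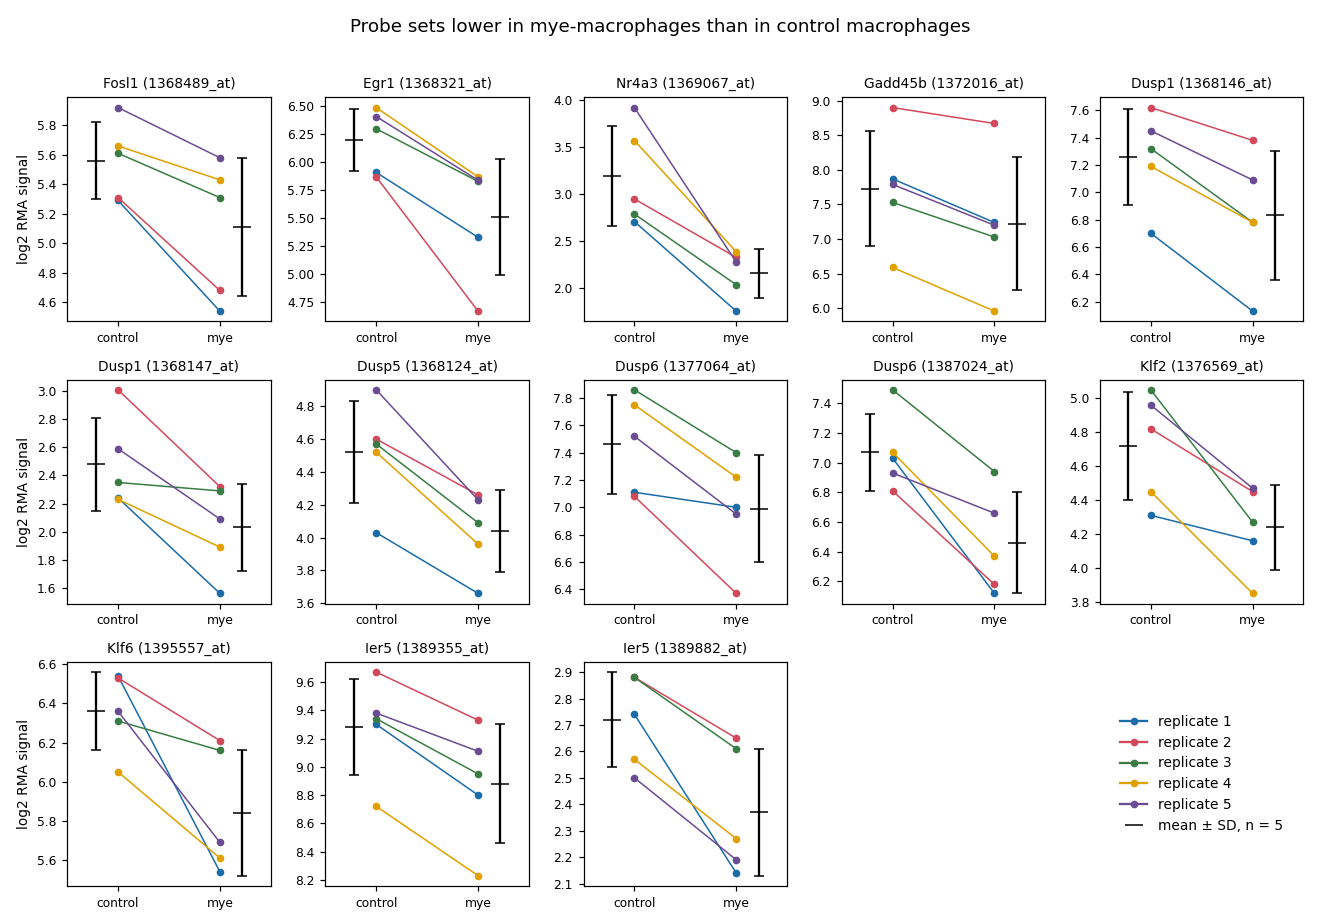
Log2 RMA signal (y axis, own scale per panel) of each of the 13 probe sets that fell, with a line joining the control and mye-macrophage sample of each replicate number and bars for mean ± SD (n = 5). Every line slopes down, while the groups overlap in all panels but those of Egr1 and Nr4a3.

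The dual-specificity phosphatases remove phosphate from MAP kinases and so end the signal that induced them. This family had the largest share of falls, 5 of 8 probe sets and 3 of 5 genes, with a median log2 fold change of -0.44. Dusp6 acts in the cytoplasm and is selective for ERK. Probe set 1387024_at read 7.03, 6.81, 7.49, 7.07 and 6.93 in control macrophages and 6.12, 6.18, 6.94, 6.37 and 6.66 in mye-macrophages, where only replicate 3 reached the range of the controls. The value was -0.61 ± 0.09, or 1.53-fold lower (limma, adjusted p = 0.0161, and 0.534 without the block). Its probe set 1377064_at read 7.11, 7.08, 7.86, 7.75 and 7.52 against 7.0, 6.37, 7.40, 7.22 and 6.95, a value of -0.48 ± 0.09 (limma, adjusted p = 0.0314). Pair 1 differed least on this one, by 0.11, although it differed most on the first. The last of its 3 probe sets, 1382778_at, read 5.78, 5.72, 6.32, 5.77 and 5.96 against 5.66, 4.96, 5.90, 5.73 and 5.60, with the same sign at -0.34 (limma, adjusted p = 0.115).

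Dusp5 is a nuclear phosphatase, also selective for ERK. It read 4.03, 4.60, 4.57, 4.52 and 4.90 in control macrophages and 3.66, 4.26, 4.09, 3.96 and 4.23 in mye-macrophages. In each pair the mye-macrophage sample was lower by 0.33 or more, and control replicate 1 was the sample that lay within the range of the mye-macrophages. The value was -0.48 ± 0.07, or 1.40-fold lower (limma, adjusted p = 0.0161, and 0.576 without the block). Dusp1 (MKP-1) acts on p38 and JNK as well as ERK and limits cytokine output of macrophages. It was the 1 gene with several probe sets that all fell. Probe set 1368146_at read 6.70, 7.62, 7.32, 7.19 and 7.45 against 6.13, 7.38, 6.78, 6.78 and 7.09, a value of -0.42 ± 0.07, or 1.34-fold lower (limma, adjusted p = 0.0252, and 0.809 without the block). The dim 1368147_at read 2.24, 3.01, 2.35, 2.23 and 2.59 against 1.56, 2.32, 2.29, 1.89 and 2.09, a value of -0.45 ± 0.10 (limma, adjusted p = 0.0467). Replicate 1 was the lowest or nearly the lowest of its group on both. Dusp2, a nuclear phosphatase of activated immune cells, did not pass. It read 7.24, 7.37, 7.13, 7.62 and 7.71 against 7.19, 7.72, 7.09, 7.70 and 7.69, with a value of 0.06. Dusp4 had a value of -0.12.

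The promoters of Dusp5 and Dusp1 are shown because both genes fell and hold different motifs. They are again 250 bases before the start from RefSeq on GRCr8. Dusp5 (chr1:262543524-262543773, plus strand) has 2 adjoining CArG boxes, and its first run of capitals is an EGR site (letters GCGNGGGCG) on the opposite strand. In Dusp1 (chr10:17184603-17184852, plus strand) the capitals are a CRE (TGACGTCA), the site bound by CREB and ATF factors.
Dusp5: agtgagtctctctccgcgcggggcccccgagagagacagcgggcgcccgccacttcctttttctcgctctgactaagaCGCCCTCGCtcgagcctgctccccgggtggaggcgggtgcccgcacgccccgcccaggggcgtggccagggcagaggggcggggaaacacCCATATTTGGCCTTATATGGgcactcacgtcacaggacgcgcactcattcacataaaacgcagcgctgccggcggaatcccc
Dusp1: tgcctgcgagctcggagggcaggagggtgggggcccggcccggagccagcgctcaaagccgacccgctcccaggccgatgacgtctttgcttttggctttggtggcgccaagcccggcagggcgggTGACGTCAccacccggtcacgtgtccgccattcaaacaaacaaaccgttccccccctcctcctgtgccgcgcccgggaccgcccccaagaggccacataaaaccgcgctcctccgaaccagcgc

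Of the 43 measured genes, 31 have a promoter sequence in the table used, 8 of them among the 10 genes that fell, and each window runs from 250 bases before to 50 bases after the start. Klf2 and Nr4a3 are the 2 that fell and are named only. On both strands, a CArG box was present in 5 of the 31 (Egr1, Egr2, Dusp5, Klf6 and Zfp36), or 16.1%, against 1.64% of all 33469 promoters. A CRE was present in 4 (Jund, Maff, Dusp1 and Ier2), or 12.9% against 1.83%. The EGR site was present in 9, or 29.0% against 4.98%. The AP-1 site TGANTCA was present in 2, or 6.45% against 7.33%, and the NR4A site AAAGGTCA in 0, against 1.43%. No 2 of these matches overlapped. Of the 16 promoters with at least 1 motif, 4 belonged to genes that fell (Egr1, Dusp1, Dusp5 and Klf6), so these matches were not limited to them. The letters say only that the motif is in the window, and no binding was measured.

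**Figure D3:**
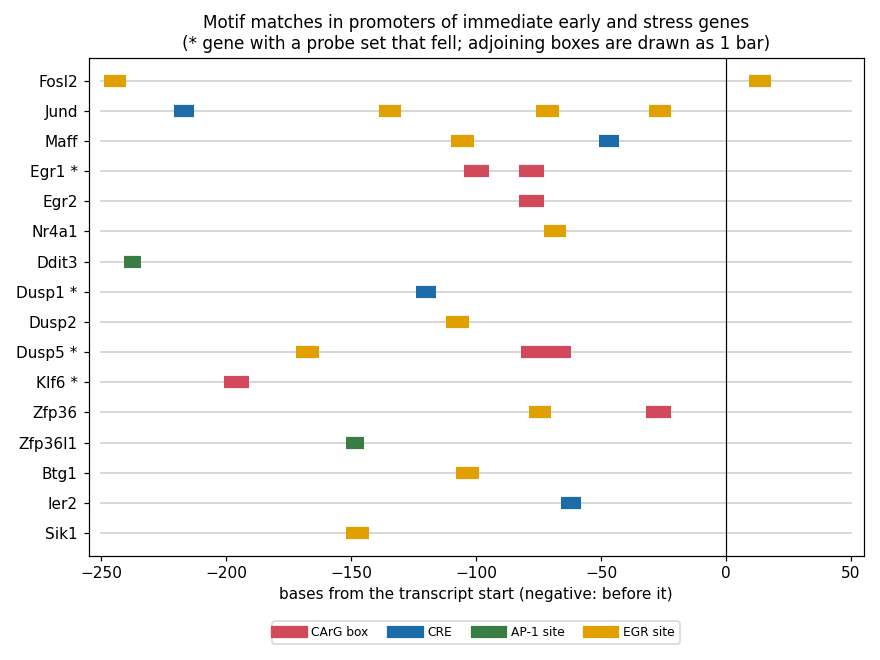
Positions of the motif matches (coloured bars) in the 16 promoters with at least 1 match, as bases from the transcript start (x axis). Genes marked with an asterisk, 4 of the 16, have a probe set that fell.

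KLF2 and KLF6 are zinc finger factors of the Krüppel-like family, KLF2 known in macrophages and endothelium for restraining inflammatory genes and KLF6 for promoting them. Each had 1 probe set that fell beside others that did not pass or, for Klf2, also some outside the variance filter. Klf6 probe set 1395557_at read 6.54, 6.53, 6.31, 6.05 and 6.36 in control macrophages and 5.54, 6.21, 6.16, 5.61 and 5.69 in mye-macrophages, where pair 1 differed most. The value was -0.52 ± 0.11, or 1.43-fold lower (limma, adjusted p = 0.0479, and 0.534 without the block). Its much brighter 1387060_at read 10.50, 10.66, 10.40, 10.06 and 10.50 against 9.99, 10.62, 10.25, 9.79 and 10.28, a value of -0.24 (limma, adjusted p = 0.146). The third, 1388986_at, read 9.52, 9.82, 9.72, 9.26 and 9.65 against 9.25, 9.70, 9.50, 9.12 and 9.51, a value of -0.18 (limma, adjusted p = 0.173). All 3 were lower in 5 of 5 pairs.

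Klf2 has 5 probe sets, and the fall rests on 1376569_at. It read 4.31, 4.82, 5.05, 4.45 and 4.96 against 4.16, 4.45, 4.27, 3.85 and 4.47, a value of -0.48 ± 0.09 (limma, adjusted p = 0.0325, and 0.581 without the block). The brightest, 1375248_at, read 5.05, 4.73, 4.92, 5.02 and 4.92 against 4.92, 5.05, 4.98, 5.11 and 4.77, a value of 0.04, and so shows no fall. It lay outside the variance filter and had no adjusted p, as did 1394068_x_at. The remaining 3 had signals of 2.17 or less in every sample and values of 0.04 (1386040_at), -0.29 (1386041_a_at) and 0.03 (1394068_x_at). Among the other factors grouped with them, Myc had the highest value of the 69. It read 4.09, 2.98, 4.27, 4.99 and 3.79 in control macrophages and 4.60, 3.84, 4.63, 5.26 and 3.75 in mye-macrophages, higher in 4 of 5 pairs, with a value of 0.40 ± 0.11 (limma, adjusted p = 0.104). Klf4, Klf10, Cebpd and Csrnp1 had values between -0.12 and 0.06. In this group 2 of 15 probe sets fell.

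Gadd45b, a stress sensor that binds p38 and JNK pathway kinases, fell. It read 7.87, 8.90, 7.53, 6.59 and 7.79 in control macrophages and 7.24, 8.67, 7.03, 5.96 and 7.20 in mye-macrophages. The samples of each number sat together, from 6.59 and 5.96 for number 4 to 8.90 and 8.67 for number 2, and the groups overlapped. The value was -0.51 ± 0.08, or 1.43-fold lower (limma, adjusted p = 0.0161, and 0.924 without the block). Atf4, the transcription factor through which the integrated stress response acts, read 11.01, 11.47, 10.84, 10.41 and 10.92 against 10.37, 11.35, 10.77, 10.26 and 10.87. It was lower in 5 of 5 pairs, most in pair 1, with a value of -0.20 ± 0.09 (limma, adjusted p = 0.268). Ddit3 (CHOP), a target of ATF4 in that response, had a value of -0.11 and Gadd45a one of -0.21.

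IER5 is an immediate early protein that takes part in the activation of heat shock factor HSF1. It fell on 2 of its 3 probe sets. Probe set 1389355_at read 9.30, 9.67, 9.34, 8.72 and 9.38 against 8.80, 9.33, 8.95, 8.23 and 9.11, a value of -0.40 ± 0.07, or 1.32-fold lower (limma, adjusted p = 0.0251, and 0.807 without the block). The dim 1389882_at read 2.74, 2.88, 2.88, 2.57 and 2.50 against 2.14, 2.65, 2.61, 2.27 and 2.19, a value of -0.34 ± 0.08 (limma, adjusted p = 0.0473). Replicates 2 and 3 of the mye-macrophages lay within the control range on the dim one. On 1375202_at every sample lay between 1.82 and 2.23, with a value of -0.01. Ier3 (IEX-1), the brightest of the family, read 9.54, 8.77, 10.26, 10.81 and 9.81 against 9.37, 8.64, 9.96, 10.70 and 9.39, lower in 5 of 5 pairs with a value of -0.23 ± 0.07 (limma, adjusted p = 0.13). Ier2 was lower in 5 of 5 pairs too, with a value of -0.21.

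None of the 3 mRNA decay and antiproliferative genes passed. Zfp36 (tristetraprolin), which binds AU-rich elements of cytokine mRNAs and speeds their decay, read 6.04, 6.39, 6.36, 5.82 and 6.44 in control macrophages and 5.80, 5.74, 5.97, 5.78 and 6.16 in mye-macrophages, a value of -0.32 ± 0.09 (limma, adjusted p = 0.0957). Zfp36l1 had a value of -0.19. Btg1, an antiproliferative cofactor of mRNA deadenylation, read 11.50, 11.39, 11.56, 11.64 and 11.56 against 11.39, 11.49, 11.45, 11.47 and 11.33, a value of -0.10, and lay outside the variance filter. Of the genes that respond to cAMP, glucocorticoid and G-protein signals, none passed either. Rgs1, which ends Gi signals of chemokine receptors, read 8.81, 8.65, 9.49, 9.31 and 9.59 against 8.03, 8.44, 9.21, 8.86 and 9.52, lower in every pair with a value of -0.36 ± 0.10 (limma, adjusted p = 0.0944). Tsc22d3 (GILZ), a glucocorticoid target, had a value of 0.14, Per1 one of 0.00, and the probe sets of Sik1 and Rgs2 lay between -0.30 and 0.20.

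The levels of these genes also differed between replicate numbers. For the 42 probe sets with a mean of 4 or more, the median range of the pair means over the 5 numbers was 0.84, against 0.43 for the 10709 such probe sets of the array, while the median size of the log2 fold change was 0.21 against 0.08. Numbers 2 and 4 were picked after their values were seen. Gadd45b, Ddit3, Atf3 and Atf4 were higher in number 2 than in number 4 by 1 or more in both groups. The opposite order held for Gadd45a, Klf4, Ier2, Myc, Ier3 and Zfp36l1, again by 1 or more in both groups. Over the array 2.8% of such probe sets showed the first pattern and 3.2% the second. The sources do not say what a replicate number stands for.

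**Figure D4:**
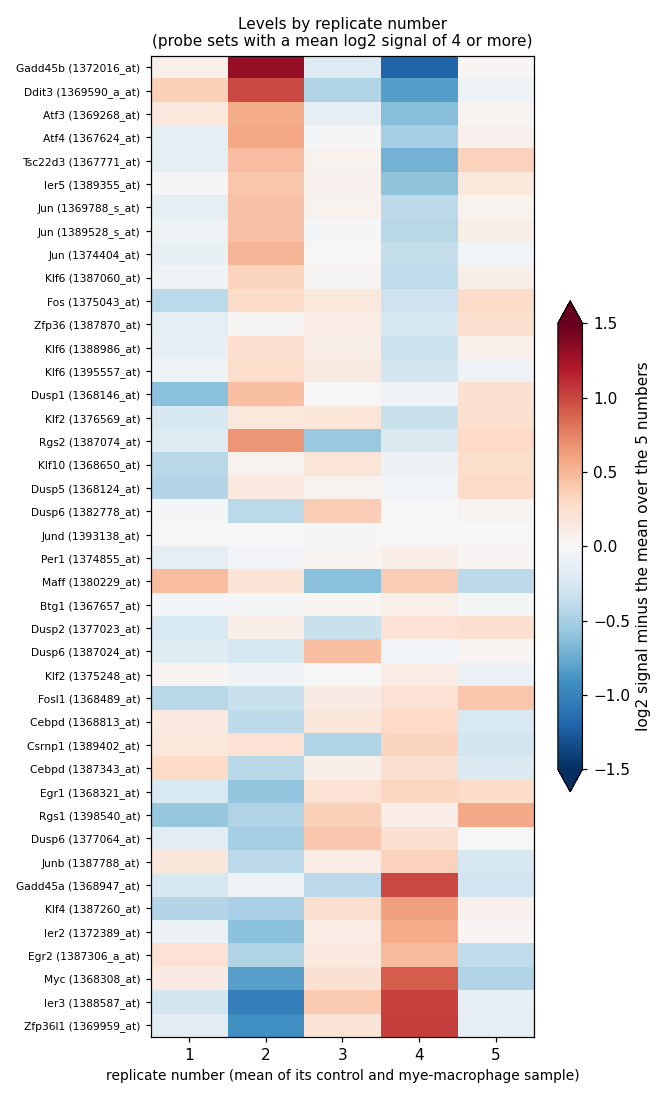
Mean log2 signal of the 2 samples of each replicate number (columns) minus the mean over the 5 numbers, for the 42 probe sets with a mean of 4 or more (rows). Gadd45b, Ddit3, Atf3 and Atf4 at the top are high in column 2 and low in column 4, and Myc, Ier3 and Zfp36l1 at the bottom are low in column 2 and high in column 4.

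Around these genes, 8 lists of the same pathways hold 110 other genes with 182 probe sets, 114 of them in the filter. All probe sets in the filter had shares of 1.9% lower and 0.792% higher. Among the 114, 4 (3.51%) were lower and 3 (2.63%) were higher in the blocked limma fit (adjusted p between 0.0242 and 0.0475). Without the block their adjusted p lay between 0.752 and 0.927. No probe set was called in the lists of SRF and its partners, of CREB and ATF factors and of other AP-1 partners. None was called in those of EGR and NR4A co-regulators and of ERK, JNK and p38 kinases either. Together these 5 lists hold 41 probe sets in the filter, to be read against the same shares of the filter. The 4 that fell are other immediate early genes, namely Sphk1 (sphingosine kinase, -0.45), Hes1 (a NOTCH target, -0.31), Plk2 (a polo-like kinase, -0.41) and Rhob (a small GTPase, -0.44). Those that rose are Sgk1, a kinase induced by serum and glucocorticoids (0.31), Klf7 (0.43) and Asns (0.54). Klf7 rose on a dim probe set (means 3.02 in control macrophages and 3.44 in mye-macrophages). Its others did not pass or lay outside the variance filter, with values from 0.03 to 0.23. Asns is asparagine synthetase, a target of ATF4, and Atf4 and Ddit3 had values below 0 that did not pass. The other genes of the integrated stress response list did not pass and had values of both signs. Trib3, another ATF4 target, had a value of 0.30 on 1 probe set, higher in 5 of 5 pairs (limma, adjusted p = 0.0944). Its others had values of 0.18. Psat1 had a value of 0.40, higher in 4 of 5 pairs (limma, adjusted p = 0.182). Sesn2, a stress-induced sestrin, had one of -0.32, lower in 5 of 5 pairs (limma, adjusted p = 0.0573). Its dim probe set had a value of 0.02. Ddit4 had a value of -0.25 and Chac1 one of -0.02, and the median of the list was 0.01.

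The cells carried macrophage markers, with 9 of 11 measured marker genes at a mean of 4 or more. Of the 11 markers 1 passed, Mrc1 (the mannose receptor), which was higher by 0.71 in mye-macrophages, in 5 of 5 pairs (limma, adjusted p = 0.0265, and 0.935 without the block). Mrc1 is not among the 9, since its probe set is dim, with means of 2.29 in control macrophages and 2.99 in mye-macrophages. Of the 11 markers of T, B and NK cells and the 13 of mesothelial cells and fibroblasts, 0 reached a mean of 4, and 1 of 10 of granulocytes and mast cells did. The summed log2 signal of the T, B and NK list was 20.1 to 25.6 in control macrophages and 18.6 to 28.8 in mye-macrophages, that of granulocytes and mast cells 13.9 to 29.6 and 15.4 to 30.8, and that of mesothelial cells and fibroblasts 17.6 to 21.7 and 17.6 to 22.4. Of the 13 oligodendrocyte and myelin genes, 3 rose on 1 probe set each, Mbp by 3.37, Mobp by 3.60 and Bcas1 by 1.76 (limma, adjusted p between 0.208 and 0.469 without the block). The other 18 of the 21 probe sets of this list, further ones of Mbp and Mobp among them, did not pass and had values from -0.20 to 0.26. Olig2 and Sox10, which define the oligodendrocyte lineage, had means of 2.01 or less. The methods describe the adherent cells as nearly pure macrophages, and the RNA content of the added myelin was described as negligible with no data shown. Whether other cells or such RNA have a part in the falls was not tested.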

How the data were processed

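The values deposited by the authors for the 10 arrays are RMA signals on the log2 scale, computed with the affy package. The array medians of 2.30 to 2.34 are low for RMA, and the reason is not given in the sources used here. From these values, 57 Affymetrix control probe sets were left out and 31042 were tested, of which 20826 have 1 gene symbol in the array annotation. Genes and lists were chosen with earlier results of these data known, so no test was run over a list. Counts are given beside the share of all probe sets called, which does not remove the effect of that choice.

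Mye-macrophages were set against control macrophages in R 4.3.3 with lmFit and eBayes of limma 3.58.1, the replicate number being a fixed block. Benjamini-Hochberg adjustment ran over the 15521 probe sets (50%) whose interquartile range was larger, and the threshold was 0.05. The methods name an unpaired test, which was run as an alternative. Samples were paired by the labels' numbers. Deviations from the group means correlated at 0.404 to 0.791 for samples of the same number, over the threshold of 0.1, and at 0.279 at most otherwise. Exact permutation tests used SciPy 1.17.1. The fit was run on data simulated from the blocked model itself with independent noise. That run checks the code and cannot say whether the block suits these data. Full values are given for each probe set that fell, the other probe sets of its gene (5 dim ones by range) and the brightest of each family. Fos, Myc, Zfp36, Rgs1 and Atf4 were added with their values seen. Promoters matched by symbol come from RefSeq (GRCr8). Alternatives covered the block, test, filter, variance prior, scaling, array weights, RNA quality, probe set per gene and each replicate left out.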

Additional observations from a re-analysis of the deposited data

Results flagged for a closer look

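In the 138 groups of 5 samples (69 probe sets, 2 groups each), 6 held a sample that lay far from the other 4 by Dixon's criterion, and chance gives about 1 in 20 groups. None is a probe set that fell. Fosb (1373759_at) read 1.90 in control replicate 2, with the others at 1.19 to 1.40. Jund (1387762_s_at) read 1.94 in mye-macrophage replicate 3, with the others at 1.34 to 1.40. Klf2 (1386041_a_at) read 0.68 in mye-macrophage replicate 4, with the others at 1.02 to 1.13. Sik1 (1368596_at) read 1.40 in control replicate 4, with the others at 2.05 to 2.28. Mye-macrophage replicate 2 was high for Nr4a2 (1369007_at), at 3.48 against 2.33 to 2.57, and for Rgs2 (1368144_at), at 4.70 against 3.17 to 3.44. In the groups named here, every sample of Fosb, Jund, Klf2 and Sik1 lay below the medians of the arrays.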

How the results depend on the processing

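The number of the 69 probe sets past the threshold was 13 in the blocked limma fit. It was 0 with no replicate block, 0 with the replicate block as a random effect and 0 by the methods' t-test after Benjamini-Hochberg adjustment. It was 5 with no variance filter (Egr1, Nr4a3, Gadd45b, Dusp5 and Dusp6). It was 21 with a trended and robust variance prior (20 lower, 12 of them among the 13, and Myc higher). It was 1 with the beta-actin gap added (Klf2) and 8 with only the brightest probe set of each gene tested. Of those 8, 7 were among the 13 (Fosl1, Egr1, Gadd45b, Dusp1, Dusp5, Dusp6 and Ier5). The other was Fos 1375043_at, lower (limma, adjusted p = 0.0431). The brightest probe sets of Nr4a3, Klf2 and Klf6 did not pass. The number was 12 to 15 under other scalings and array weights. Over all probe sets the count of 418 became 0, 11 and 0 under the first 3 of these and 128, 1041, 16 and 257 under the next 4. The count of 10 genes became 0, 0, 0, 5 and 1 in the same order without the prior and the single probe set. Leaving out both samples of a number gave 1 to 14 probe sets of 1 to 11 genes, and 31 to 672 over the array. It gave 1 without number 1 (Dusp6), 3 without number 2 (Egr1, Nr4a3, Gadd45b), 1 without number 4 (Nr4a3) and 2 without number 5 (Nr4a3, Dusp6). Without number 3 it gave 14, of which 12 were among the 13 and the others were the probe sets of Fos, 1 lower and 1 higher. All 13 stayed below 0 in each of these settings that tested them. Without the pairs, 12 of the 69 (11 lower, of which 9 were among the 13, and 1 higher, Fos 1371283_at) were at an unadjusted p under 0.05, and 6 to 16 with 1 sample left out (6 without control replicate 5, and 7 when mye-macrophage replicate 1 was dropped). Over the probe sets in the filter these were 1032 of 15521, and 798 to 1685 with 1 sample left out (1685 without control replicate 4). The 12 are likewise counted among the 60 of the 69 in the filter. The methods' t-test at an unadjusted p under 0.05 counted 8 of these 60 (7 lower and 1 higher), and 778 of the 15521 in the filter.

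The sign changed only for probe sets that did not pass and had values within 0.12 of 0. With the beta-actin covariate the values became 0.06 (Jund 1387762_s_at), -0.03 (Jund 1393138_at), -0.06 (Egr4 1375784_at), -0.05 (Nr4a3 1369217_at), -0.14 (Klf2 1386040_at), -0.04 (Klf4), -0.03 (Klf10), 0.02 (Cebpd 1368813_at) and -0.08 (Csrnp1). With array weights they became -0.02 (Fosl2 1383860_at) and -0.02 (Csrnp1), and with quantile scaling -0.0012 (Egr3) and 0.03 (Per1). With numbers left out they ranged from -0.06 to 0.09 (Fosl2 1383860_at), -0.19 to 0.03 (Jund 1387762_s_at), -0.003 to 0.04 (Jund 1393138_at), -0.06 to 0.10 (Egr3), -0.05 to 0.08 (Egr4 1375784_at), -0.09 to 0.04 (Egr4 1387442_at), -0.19 to 0.01 (Nr4a1), -0.23 to 0.01 (Nr4a2 1387410_at), -0.04 to 0.08 (Nr4a3 1369217_at), -0.01 to 0.09 (Dusp2), -0.03 to 0.09 (Klf2 1375248_at), -0.06 to 0.23 (Klf2 1386040_at), -0.01 to 0.07 (Klf2 1394068_x_at), -0.01 to 0.08 (Klf4), -0.0025 to 0.14 (Cebpd 1387343_at), -0.13 to 0.08 (Csrnp1), -0.08 to 0.08 (Ier5 1375202_at), -0.03 to 0.02 (Per1) and -0.32 to 0.04 (Rgs2 1387074_at). The number of arrays limits the precision, and for signals near the array medians a change cannot be read as absent.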
